A study of Rattus norvegicus with 59 samples.

Results

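H3K9me2 was compared between left ventricular nuclei of rats with a banded aorta and of sham-operated rats, over the 6171 genomic bins of the deposited H3K9me2 table, all of which were used (the chromatin tables of the series hold 15874 bins for H3K9me2 and H3K27me3 together). For each bin the table gives 1 pooled value per group, in log2 RPM (reads scaled to a common library total), and the measure described here is the banded value minus the sham value. The animals were male Sprague Dawley rats with a starting weight of about 170 g. In the banded group a silk suture was tightened around the ascending aorta for 6 weeks, and only rats with a non-failing heart and detectable hypertrophy, including a diastolic posterior wall above 1.9 mm, were kept. Sham-operated rats had the operation without the tightening, and the labels used here give no time to sampling for them. Both groups were anaesthetised with N2O, O2 and isoflurane and received buprenorphine for pain. Nuclei of both groups were sorted for PCM1, a centriolar satellite protein that marks cardiomyocyte nuclei, and at least 100000 nuclei were taken for chromatin immunoprecipitation with an antibody against H3K9me2. Each group had 4 samples, which the labels do not tie to single animals and which the deposited table combines into 1 column in a way the labels do not state. A second H3K9me2 experiment, used below only as a reference, covered the same bins in treadmill-trained rats and untrained controls, again 4 samples each. Trained and control rats had a starting weight of about 280 g, and training lasted 6 weeks. Whether the sorted nuclei carried cardiomyocyte markers could not be checked in these tables, which hold bins and no genes.

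H3K9me2 is dimethylation of lysine 9 on histone H3. It is placed in euchromatin mainly by the paired enzymes G9a (EHMT2) and GLP (EHMT1), is removed by demethylases such as those of the KDM3 family, and forms broad domains over silent genes and gene-poor DNA, often at the nuclear periphery. H3K9me2 domains are generally sparse where genes are active. In the adult heart, pressure overload by aortic banding is a standard model of pathological hypertrophy, in which cardiomyocytes enlarge and re-express fetal genes. The series asks about H3K9 methylation by G9a and GLP in that response. H3K27me3, which the series also measured, is placed by a different enzyme complex, PRC2.

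The bins had a median length of 190 kb, ran from 20 kb to 14.7 Mb and covered 2532 Mb of chromosomes 1 to 20. Because the values are pooled, the spread between animals is unknown, no difference below has a test or a replicate check, and the read depth behind a value is unknown. The sham and banded columns had nearly the same set of values in a different order: sorted by size, the columns lay within 0.001 (log2) of each other at 91.1% of the 6171 ranks, and within 0.027 at every rank. The same held against the control column (80.4% of ranks within 0.001 of sham). Totals were 0.967 M RPM in each column. A gain or loss of H3K9me2 over the whole genome would therefore not appear, and a difference in a bin shows only that its place among the bins moved. The 10 bins with the highest values in sham rats had exactly the same value in both groups. Input samples were not analysed here.

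Density, the log2 RPM of a bin minus the log2 of its length in kb, gives the signal per kb of that bin. Its range over bins shows how evenly the mark was spread among them. The median density was -1.37 in sham and -1.39 in banded rats. From the 10th to the 90th percentile of bins, density ran from -1.73 to -1.14 in sham rats, a 1.51-fold range. In banded rats it ran from -1.76 to -1.10, a 1.57-fold range. Control rats had a 2.31-fold range (-2.03 to -0.82) and trained rats a 2.13-fold range (-1.98 to -0.89). By these percentiles, which count each bin once, the sham landscape was the flattest of the 4 and the banded landscape slightly less flat. Both were far flatter than those of the exercise experiment. In each length class from 500 kb up, however, the SD of density over bins was slightly higher in sham than in banded rats. It was 0.326 and 0.320 from 500 kb to 1 Mb, and 0.398 and 0.373 from 1 to 2 Mb. At 4 Mb or more it was 0.332 in sham, 0.329 in banded and 0.334 in control rats. Bin densities had a Pearson r of 0.862 between sham and banded, 0.426 between sham and control, 0.689 between banded and control and 0.981 between control and trained, as descriptions over 6171 bins that share their borders.

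Most bins differed little between banded and sham rats. The median difference was 0.013, the median absolute difference 0.10 (a 1.07-fold change) and the SD over bins 0.154. In all, 3317 bins (53.8%) were higher, 2821 lower and 33 equal. By more than 0.1, 1651 bins were higher and 1541 lower. Past 0.25, 236 bins (3.82% of all bins) were higher in banded rats, covering 41.4 Mb, and 413 bins (6.69%) were lower, covering 139.9 Mb. Past 0.5, 2 bins (0.0324%) were higher and 7 (0.113%) lower, and 0 differed by more than 1. The counts past 0.5 became 1 higher and 0 lower with a pseudocount of 20.6 RPM, and 13 higher and 0 lower after removing the trend of the difference with H3K9me2 density in the exercise experiment. Training gave fewer such bins by the same measure, 38 (0.616%) higher and 64 (1.04%) lower past 0.25, and 0 (0%) higher and 3 (0.0486%) lower past 0.5 (SD over bins 0.0981). Past 0.25 the lower bins had a median length of 180 kb and the higher bins 110 kb, past 0.1 the lengths were 180 and 170 kb, and past 0.5 they were 100 kb for the lower and 305 kb for the higher bins.

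The difference followed how dense H3K9me2 was in the exercise experiment, whose samples are labelled separately from the sham and banded samples. The columns of both experiments share bin borders and nearly the same set of values, so they are not fully independent. Bins were ranked by the mean density of control and trained rats and cut into 10 classes of 617 or 618 bins. In the sparsest class, where control rats had a median density of -2.20, sham rats were at -1.59 and banded rats at -1.78. The median difference there was -0.19 (0.877-fold), and 516 of 617 bins were lower in banded rats. In the densest class, where control rats were at -0.68, sham rats were at -1.27 and banded rats at -1.15. There the median difference was 0.11 (1.08-fold), and 531 of 618 bins were higher in banded rats. The medians of the classes in between climbed step by step, through -0.13, -0.069, -0.013, 0.011, 0.026, 0.044, 0.058 and 0.093. In 8 of the 10 classes, all but classes 5 and 6 counted from the sparsest, the median density of banded rats lay between those of sham and control rats. The part of the flatter sham landscape in this order was not tested. Over all bins the difference and the reference density had a Spearman rho of 0.532 (Pearson r 0.515), a description over 6171 bins that share borders and length.

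**Figure D1:**
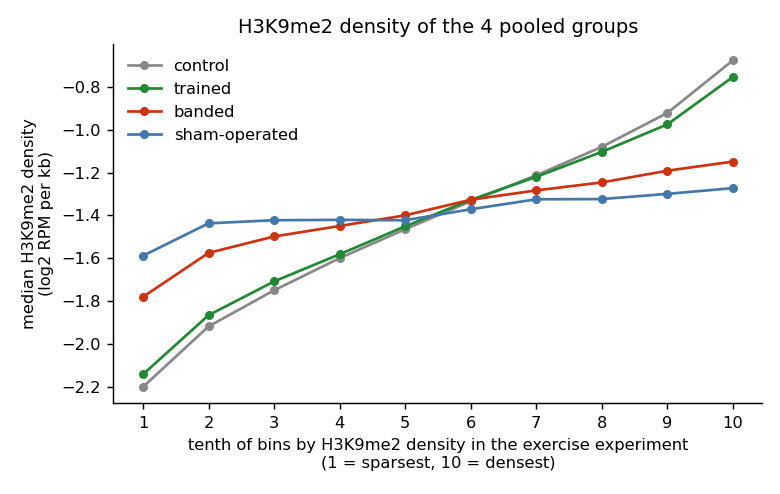
Median H3K9me2 density (log2 RPM per kb, vertical axis) of the sham-operated, banded, control and trained columns in each of 10 classes of bins, ordered along the horizontal axis by density in the exercise experiment. The sham line is the flattest (-1.59 to -1.27), the banded line is steeper (-1.78 to -1.15), and control is the steepest (-2.20 to -0.68).

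**Figure D2:**
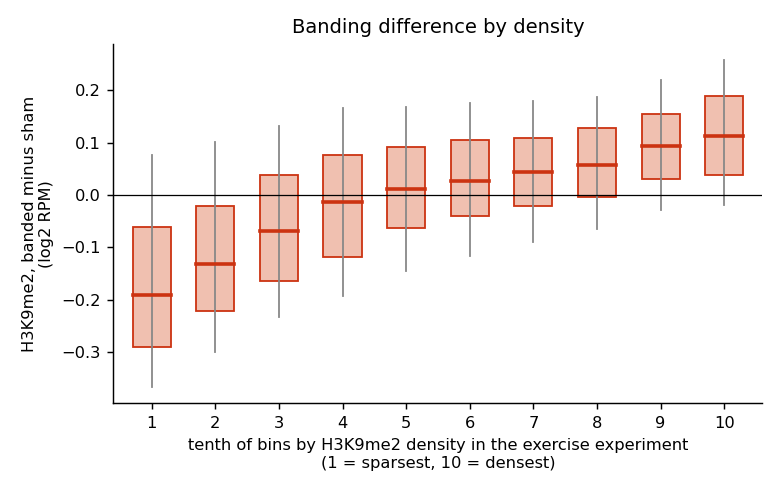
Banded minus sham difference (log2 RPM) in the same 10 classes, with the median as a thick line, the box from the 25th to the 75th percentile of bins and the thin line from the 10th to the 90th. The median climbs from -0.19 in the sparsest to 0.11 in the densest class, and bins of every class lie on both sides of 0.

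Bins past 0.25 leaned to opposite ends of this order, the losses more strongly than the gains. Of the 413 bins lower by more than 0.25, 223 fell in the sparsest class (36.1% of its bins) and 0 in the densest. Of the 236 bins higher by more than 0.25, 74 fell in the densest class (12.0% of its bins) and 14 in the sparsest (2.27%), against 3.82% of all bins. The classes in between held 8 to 34 of these higher bins each. Shares of the summed RPM, which come from the matched columns and are not read counts, moved accordingly. The sparsest class held 5.87% of the summed RPM in sham and 5.26% in banded rats, against 4.18% in control rats. The densest class held 6.42% in sham, 6.80% in banded and 8.81% in control rats. The same order was present on each chromosome. When the bins of a chromosome were split into 5 classes by the reference density, the densest class had a higher median difference than the sparsest on 20 of 20 chromosomes, by 0.19 to 0.32, with all 20 sparsest classes below 0 and all 20 densest classes above 0.

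Ranking the bins by their own density in the surgery experiment gave a much weaker picture. With the mean of sham and banded density as the order, the median difference was -0.0011 in the sparsest class and 0.055 in the densest, and Spearman's rho was 0.145. The lowest median, -0.019, was in class 3 from the sparsest. In the densest class by this order 432 of 618 bins were higher in banded rats. The densest-minus-sparsest contrast of 0.056 turned to -0.0055 with medians weighted by length and to -0.010 with a pseudocount, so this order gives no stable direction. Density in sham and in control rats had an r of only 0.426, as given above.

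The 7 bins lower by more than 0.5 are described with their density in all groups. Choosing bins for a low banded minus sham value favours a high sham value, so their sham densities are a description only. With a pseudocount of 20.6 RPM, or with the density trend removed, 0 bins were lower by more than 0.5. The largest loss, on chromosome 1 from 245415001 to 245635001 (220 kb; positions are those of the deposited table, and the assembly they refer to was not named in the labels or headers), had a density of -0.85 in sham and -1.42 in banded rats, a 0.671-fold value, with control at -2.27 and trained at -2.18. On chromosome 5 from 152045001 to 152095001, density was -1.21 in sham and -1.78 in banded rats, with control at -2.59. A 70 kb bin on chromosome 10 from 108175001 to 108245001 was at -1.34 and -1.89, and control was at -2.70. In control rats these 3 bins were sparser than in banded rats.

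In the remaining 4 bins control rats were again the sparser. Chromosome 16 from 1445001 to 1495001 was at -0.89 in sham, -1.43 in banded and -1.99 in control rats. A 100 kb bin on chromosome 3 from 154215001 to 154315001 was at -1.11, -1.65 and -2.50. On chromosome 20 from 5745001 to 5875001 the values were -1.26, -1.78 and -2.41. The smallest of the 7, chromosome 8 from 126295001 to 126475001, differed by -0.51 (density -1.30 in sham, -1.81 in banded and -2.59 in control rats). Just outside the threshold, a 50 kb bin on chromosome 4 from 106095001 to 106145001 differed by -0.499. Over the 10 largest losses, from 50 to 220 kb on 8 chromosomes, banded rats lay between sham and control rats in 10, against 69.9% of all bins lower in banded rats, and the choice of bins fixes that banded lies below sham. Trained rats were above control rats in the same 10 (by 0.037 to 0.31), against 71.8% of all bins lower in banded rats.

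The gains were less alike. The largest, a 570 kb bin on chromosome 5 from 133955001 to 134525001, was sparse in all groups: density was -2.72 in sham and -1.95 in banded rats (1.70-fold), with control at -3.73 and trained at -5.36. The other bin past 0.5 was a 40 kb bin on the same chromosome from 111285001 to 111325001. It was at -1.36 in sham rats, near their median of -1.37, and dense in the other groups. Banded rats were at -0.82 (1.46-fold, 15.5 RPM in sham and 22.7 in banded rats), control at -0.23 and trained at -0.51. Just outside the threshold, chromosome 4 from 98405001 to 98595001 differed by 0.498 and was again sparse, at -3.73 in sham and -3.24 in banded rats against -1.95 in control rats. Among the 10 largest gains, which measured 40 to 570 kb on 8 chromosomes, banded rats lay between sham and control rats in 6, near the 65.0% of all bins higher in banded rats. The other 4 were the largest gain, chromosome 19 from 75001 to 125001 (density -1.60 in sham, -1.11 in banded and -1.97 in control rats), chromosome 1 from 113495001 to 113875001 (-2.22, -1.75 and -2.53) and chromosome 4 from 101245001 to 101355001 (-1.79, -1.34 and -1.66). These 4 thus exceeded both sham and control in banded rats. By size, gains 2, 3, 4, 6 and 8 of the 10 had only 13.3 to 17.9 RPM in sham rats, below the 20.6 RPM used as pseudocount. The others of the 10 had 25.2 RPM or more in sham rats. With the pseudocount, 1 bin was higher by more than 0.5.

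**Figure D3:**
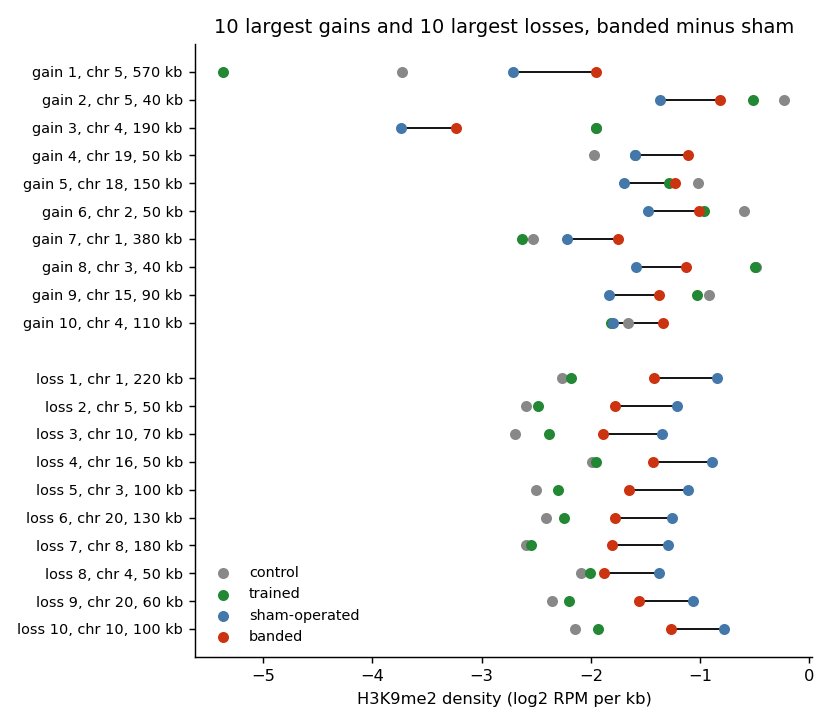
H3K9me2 density (log2 RPM per kb, horizontal axis) of the 10 bins with the largest gain and the 10 with the largest loss, one per line with chromosome and length. A black line joins sham (blue) and banded (red), and control (grey) and trained (green) are shown for reference: in all 10 losses the order from high to low is sham, banded (fixed by the choice of bins), trained, control, while the gains differ among themselves.

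Long bins made up much of the covered genome but differed little. The 540 bins of 1 Mb or more, 45.7% of the covered length, had a median difference of 0.021, and 335 of them (62.0%) were higher, 179 lower and 26 at exactly 0, against 53.8% higher over all bins. Past 0.25, 26 of the 540 were lower, against 413 of all 6171 bins (6.69%). Only 2 of the 540 were higher, against 236 of all bins (3.82%), so both shares were below those of all bins. The largest loss among them lay on chromosome 10 from 105475001 to 106985001, at a density of -1.36 in sham, -1.82 in banded and -2.28 in control rats (difference -0.46). It was followed by chromosome 3 from 157675001 to 159005001 (-1.27 in sham, -1.72 in banded) and chromosome 8 from 112485001 to 115155001 (-1.20 and -1.65), which spans 2670 kb. Chromosome 1 from 94835001 to 96205001 and chromosome 7 from 9585001 to 10685001 both differed by -0.43. All 5 were sparse in control rats, at -2.29 to -1.87.

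The largest gains among long bins lay in segments with few reads per kb in each group. They were chromosome 12 from 17845001 to 19565001 (density -3.10 in sham and -2.77 in banded rats, difference 0.33), chromosome 4 from 99085001 to 100415001 (-2.45 and -2.19) and chromosome 1 from 111935001 to 113495001 (-1.80 and -1.56). Chromosome 1 from 66215001 to 67475001 and chromosome 14 from 25001 to 1535001 both differed by 0.22. Control rats were at -2.69 to -1.79 in these 5 bins, and both the long gains and the long losses were sparser than the median bin of control rats (-1.399).

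The spread of the difference shrank with length, while its median stayed between 0 (4 Mb or more) and 0.039 (1 to 2 Mb) in the length classes. Bins under 50 kb, at a median of 12.6 RPM in sham rats, had an SD of 0.180 and a median of 0.026. In bins of 100 to 250 kb the SD was 0.157, in those of 1 to 2 Mb 0.130 and in those of 4 Mb or more 0.045, where 18 of 51 bins were at exactly 0. Bins of 1 Mb or more had a median only 0.011 above bins under 250 kb. The order by reference density depended on length. From the shortest class up to 1 Mb, the densest of 5 classes exceeded the sparsest by 0.23 to 0.29, whereas the contrast was 0.0076 in bins of 1 to 2 Mb, -0.014 in those of 2 to 4 Mb and -0.023 in longer ones. Of the 33 bins in the table at exactly 0, 20 were of 2 Mb or more. The part of the matched columns in the small spread and the small contrast of long bins was not tested.

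Chromosomes differed less from each other than bins did within each. Chromosome medians spanned 0.10, while the SD over bins within a chromosome was 0.137 to 0.175. The lowest median was on chromosome 12 (-0.061, with 106 of 170 bins lower in banded rats), followed by chromosome 10 (-0.037, 217 of 371 bins lower) and chromosome 20 (-0.019, 84 of 148 bins lower). Chromosomes 10 and 12 are known as gene-rich in the rat. The highest median was on chromosome 2 (0.042, 303 of 482 bins higher), followed by chromosome 14 (0.036, 158 of 268) and chromosome 15 (0.031, 129 of 223). Summed over its bins, chromosome 12 held 0.364 RPM per kb in sham, 0.352 in banded, 0.354 in control and 0.361 in trained rats. Chromosome 10 held 0.391 in sham, 0.381 in banded and 0.393 in control rats, and chromosome 2 held 0.369, 0.372 and 0.368. On chromosome 12 the banded value was nearer than the sham value to control, while on chromosomes 10 and 2 it was farther. Losses past 0.25 took 13.2% of the bins of chromosome 10 and 10.0% of those of chromosome 12, against 6.69% of all bins. Chromosomes 12, 10 and 20 stayed below 0 and chromosomes 2, 14 and 15 above 0 in all 7 settings run, pseudocount, filters and scaling included, whereas the number of chromosomes above 0 was 16 as deposited, 11 with the density trend removed and 9 after centring on the median.

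**Figure D4:**
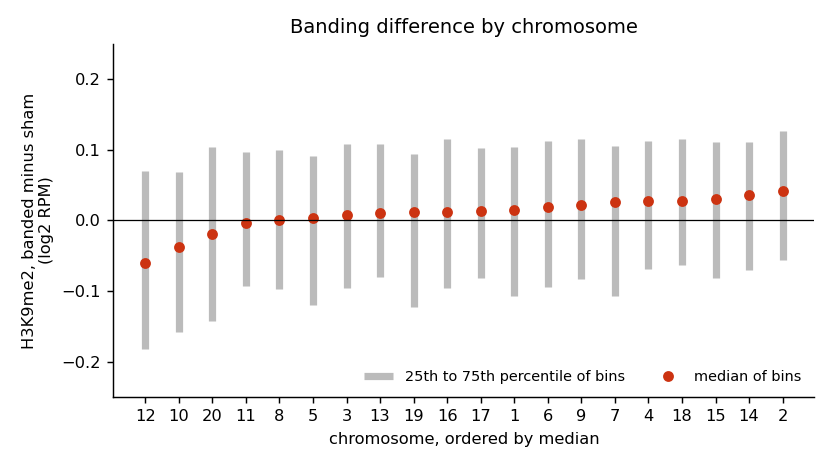
Median banded minus sham difference (red points, log2 RPM) of the bins of each chromosome, ordered by median, with grey bars from the 25th to the 75th percentile of bins. Chromosomes 12, 10 and 20 have the lowest medians and chromosome 2 the highest (0.042), and the grey bars of all chromosomes overlap.

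The ends of chromosomes with low coordinates were higher in banded rats. Of the 97 bins centred within 2 Mb of that end, 71 (73.2%) were higher, against 53.8% of all bins, with a median difference of 0.12 against 0.012 in the other 6074 bins. Density there was -1.52 in sham, -1.45 in banded, -1.501 in control and -1.43 in trained rats. Within the first 1 Mb the median was 0.16 (33 of 41 bins higher), from 1 to 2 Mb 0.088, from 2 to 5 Mb 0.054 and from 5 to 10 Mb -0.020. Of the 16 chromosomes with at least 3 bins in the first 2 Mb, 14 had a median above 0. Chromosome 13 had the highest (0.26), and the exceptions were chromosome 7 (-0.12) and chromosome 16 (-0.065, 12 bins). Removing the density trend left the excess over the other bins at 0.11. At the other end the first 2 Mb had a median of 0.055 (75 of 125 bins higher, or 60.0%, nearer the share of all bins). Its first 1 Mb had a median of 0.072 (45 of 67 bins higher, or 67.2%), and 1 to 2 Mb had 0.029 (30 of 58). Past 0.25, 13.4% of bins in that first 1 Mb were higher, against 12.2% at the low-coordinate end and 3.82% of all bins. From 2 to 5 Mb the median was -0.043, where 72 of 192 bins were higher. H3K27me3 in the 97 bins at the low-coordinate end differed by a median of 0.0029, against -0.024 over all bins. Its median was 0.026 in the first 1 Mb and -0.011 from 1 to 2 Mb. The median training difference of H3K9me2 in the 97 bins was -0.0046.

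**Figure D5:**
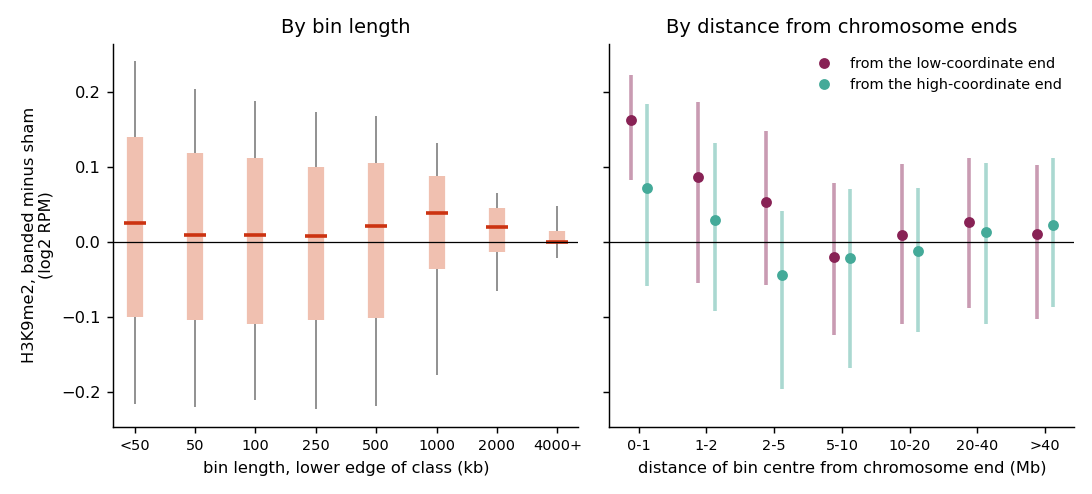
Banded minus sham difference (log2 RPM) by bin length (left; bar for the median, box for the 25th to 75th and thin line for the 10th to 90th percentile) and by distance of the bin centre from the low-coordinate or high-coordinate chromosome end (right; points for medians, lines for the 25th to 75th percentile). The spread narrows in bins of 1 Mb or more, and the median is highest, at 0.16, in the first 1 Mb from the low-coordinate end.

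Neighbouring bins resembled each other. Over 6151 pairs of neighbours the Spearman rho of the difference was 0.321, and 0.373 once the trend with reference density was removed, while the training difference had a rho of 0.0078 between neighbours and reference density one of -0.029. Runs of at least 8 neighbours on the same side of 0 numbered 81 higher (857 bins, 472 Mb) and 50 lower (551 bins, 153.9 Mb). The 5 longest in Mb were all higher in banded rats. That ranking favours runs of long bins, and 62.0% of bins of 1 Mb or more were higher, against 53.8% of all bins. Chromosome 1 held 13 bins from 101275001 to 118345001 (17.1 Mb, median 0.19), whose summed RPM was 6160 in sham and 6436 in banded rats, a log2 ratio of 0.063. On the summed scale this run thus differed less than its median bin did. Chromosome 4 held 17 bins from 87955001 to 103915001 (16.0 Mb, median 0.20, with summed RPM of 4838 in sham and 5190 in banded rats, a log2 ratio of 0.10). The others were on chromosome 14 from 46755001 to 62265001 (median 0.091), chromosome 6 from 75775001 to 91105001 (0.087) and chromosome 4 from 31015001 to 43265001 (0.11). The run with the most bins, picked after its values were seen, was lower: 38 bins in a row on chromosome 20 from 2805001 to 12825001 (10.0 Mb) had a median of -0.17, with 3710 RPM in sham and 3233 in banded rats. Their median density was -1.47 in sham, -1.63 in banded, -1.74 in control and -1.64 in trained rats.

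The training difference ran the other way over the same bins. Bins lower by more than 0.25 in banded than sham rats had a median training difference of 0.10, and 365 of 413 (88.4%) were higher in trained than control rats, against 50.1% of all bins. In bins higher by more than 0.25 with banding the median training difference was -0.10, and 37 of 236 (15.7%) were higher in trained rats. Over all bins the 2 differences had a Spearman rho of -0.511 (Pearson r -0.490, n = 6171 bins), which share no samples but share bins. Both followed reference density in opposite senses. The training difference went from 0.071 in the sparsest to -0.083 in the densest class, but control and trained values set those classes. Ordered by the density of sham and banded rats, the training difference was -0.010 in the sparsest and 0.0023 in the densest class.

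H3K27me3 was placed on the H3K9me2 bins by overlap, and its values are set beside those of H3K9me2, since the labels do not say whether both marks came from the same animals. In its own 9703 bins, H3K27me3 was higher by more than 0.25 in 142 (1.46%) and lower in 241 (2.48%). In the 413 H3K9me2 bins lower by more than 0.25, H3K27me3 density was -1.71 in sham and -1.86 in banded rats, with a median difference of -0.14, against -0.024 over all bins. In the 236 bins with higher H3K9me2 it was -1.17 and -1.11, with a median difference of 0.027. Over the 10 largest H3K9me2 losses the H3K27me3 difference ran from -0.40 to -0.11, and over the 10 largest gains from -0.028 to 0.43. The largest gain, on chromosome 5, had an H3K27me3 density of -2.43 in sham and -2.10 in banded rats. Along the classes of H3K9me2 reference density the H3K27me3 difference was -0.14 in the sparsest, 0.014 in class 7 and -0.039 in the densest.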

How the data were processed

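The authors deposited H3K9me2 and H3K27me3 as log2 RPM values per bin, 1 column per group, and the names of the deposited tables give circular binary segmentation (CBS) as the origin of the bins. Bowtie, SAMtools, R 2.15.1 and edgeR are named without roles in the submitters' processing notes. Genome build, pooling of samples, the samples that set the borders and the step that matched the columns remain not given in the sources used here. Differences, densities, density classes, runs (at least 8 bins) and end distances were computed in Python 3.11.15 (scipy 1.17.1, numpy 2.4.6, pandas 2.3.3), tested on simulated data, and drawn with matplotlib 3.10.9. H3K27me3 was averaged over a bin as RPM per kb weighted by overlap. The density trend is a running median over 401 bins. Named were all bins past 0.5, the 10 largest gains and losses, the 5 largest of each from 1 Mb, the 5 longest runs and the 3 highest and lowest chromosomes. The measures and lists were chosen with earlier results of these data known. Alternatives were a pseudocount, filters on low and short bins, thresholds, scalings, length weights and other density orders. With 1 pooled value per group, no test was run. Genes were not placed on bins, since no annotation of the files' build was at hand. RNA tables were not used here.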

Additional observations from a re-analysis of the deposited data

Results flagged for a closer look

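The bin on chromosome 5 from 133955001 to 134525001 was higher by 0.76 on the log2 scale in banded than sham rats and lower by the largest amount of any bin in trained than control rats (difference -1.63). It stands out because both differences exceeded 0.5 in opposite directions. Its density was the lowest of all bins in control rats (-3.73) and in trained rats (-5.36). Over its 570 kb the log2 RPM was 5.42 in control and 3.79 in trained rats, against a median of 6.16 over the bins of each column. In sham rats its density was -2.72, also far below the median of -1.37. The difference between them was not tested, since each group has 1 pooled value.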

How the results depend on the processing

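No paired analysis was possible because the H3K9me2 columns are pooled over the samples of a group, and for the same reason no replicate could be left out. Of 55 alternatives for 10 results, 37 stayed within 1.5 times the value reported. The 2 bins higher by more than 0.5 became 1 with a pseudocount of 20.6 RPM (the 10th percentile), without the 10% of bins lowest in RPM or without the shortest 10%, 236 at a threshold of 0.25, 0 at a threshold of 1 and 13 with the density trend removed. The 7 lower bins became 0 with the pseudocount, 413 at 0.25, 0 at 1 and 0 with the trend removed. The contrast of the densest against the sparsest of 10 classes by surgery density, 0.056, turned to -0.010 with the pseudocount, -0.0055 with length-weighted medians and -0.096 with density from the sham column alone. It was 0.30 with density from the exercise experiment and 0.19 with the banded column alone. Ordering bins by a column that is part of the difference moves the contrast by construction. The contrast by exercise-experiment density, 0.30, was 0.194 with the pseudocount, 0.185 with length weights and -0.0096 in bins of 1 Mb or more. The alternatives for that contrast, for chromosome ends and for the trend were chosen after seeing the data. Depth per bin is unknown, and bins under 50 kb rest on a median of 12.6 RPM in sham rats.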
